A study of Mus musculus with 31 samples.

Results

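The mammary glands described here kept a single functional Stat5 allele at day 6 of pregnancy, either 1 Stat5b allele or 1 Stat5a allele, and were each set against wild-type glands with 4 alleles. The genes taken as members were at least 2-fold higher in both single-allele columns than in wild type, 842 genes, or at least 2-fold lower in both, 590 genes. These 1432 genes came from 13367 compared at day 6, out of 22609 gene symbols in the table. No gene was past 2-fold in opposite directions. At 4-fold, 127 genes were higher in both columns and 55 were lower in both.

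The animals were of a mixed 129SV, FVB/N and C57BL/6 background. The group called B carried a deletion of the linked Stat5a and Stat5b genes on 1 chromosome (Stat5abnull) and a Stat5a- allele on the other, which leaves a single Stat5b allele. The group called A carried Stat5abnull opposite a Stat5b- allele, which leaves a single Stat5a allele. These alleles are in the germ line, so in an animal of that genotype stroma, fat and immune cells lack the same genes as the epithelium. Whether B and A glands came from separate animals is not given, and the genotype of their stroma and immune cells was not tested. The wild-type group is called AABB, a name that the submitters use for wild-type and for Stat5ab fl/fl mice. The labels list 3 samples for each of the 3 groups, 9 of the 31 samples of the series, while the protocol speaks of 2 mice per genotype. The other day 6 groups, used here only as reference columns, were BB (Stat5a-/-, 2 Stat5b alleles), AB (Stat5ab+/null, 1 allele of each gene) and Null (Stat5ab fl/fl;MMTV-Cre, in which the Cre of a mammary tumour virus promoter removes both genes in epithelium). Poly(A) RNA of tissue taken without lymph nodes was sequenced. Values are FPKM, fragment counts scaled to transcript length and library size, after a median-ratio scaling. The deposited table holds 1 mean per genotype, so spread between samples is unknown and differences are described without a test. Ratios are log2 of (scaled FPKM + 1) against wild type, on which 1 is the 2-fold limit; the added 1 understates the change of genes with low levels.

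STAT5A and STAT5B are transcription factors that cytokine receptors activate through the kinase JAK2. In mammary epithelium prolactin is the main such signal, and STAT5 is known for driving the growth of alveoli in pregnancy and the transcription of milk protein genes. Growth hormone and several interleukins signal through the same proteins in fat, stroma and immune cells. STAT5 dimers bind the sequence TTCNNNGAA, where N is any base, which reads the same on both strands.

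Csn2 and Csn1s2a, which encode caseins, the main milk proteins, had the lowest ratios of the table, and the casein genes lie in a single cluster on chromosome 5. To show what sequence stands before genes that moved together, the lines below give the 250 bases before the start of 3 of them, 5′ to 3′ on the strand of the gene, from RefSeq's promoter table on GRCm38.p6; capitals mark TTCNNNGAA.
Csn1s1 (chr5:87665958-87666207, plus strand): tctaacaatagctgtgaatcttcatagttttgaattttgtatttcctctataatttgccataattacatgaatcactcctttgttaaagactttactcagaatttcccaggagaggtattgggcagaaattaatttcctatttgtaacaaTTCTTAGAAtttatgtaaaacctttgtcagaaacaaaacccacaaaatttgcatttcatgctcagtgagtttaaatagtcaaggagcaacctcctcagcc
Csn2 (chr5:87699426-87699675, minus strand): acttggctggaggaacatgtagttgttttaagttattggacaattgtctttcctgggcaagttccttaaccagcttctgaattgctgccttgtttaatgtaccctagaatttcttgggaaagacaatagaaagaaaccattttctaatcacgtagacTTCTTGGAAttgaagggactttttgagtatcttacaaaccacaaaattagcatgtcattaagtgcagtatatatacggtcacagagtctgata
Csn1s2a (chr5:87774200-87774449, plus strand): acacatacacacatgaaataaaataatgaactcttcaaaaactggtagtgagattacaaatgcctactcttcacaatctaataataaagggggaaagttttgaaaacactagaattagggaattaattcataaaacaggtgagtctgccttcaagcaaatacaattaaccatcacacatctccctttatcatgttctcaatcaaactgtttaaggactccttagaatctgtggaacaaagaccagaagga
Csn1s1 held 1 match, which began 100 bases before the start, and Csn2 held 1 match, which began 93 bases before it. The Csn1s2a window held none, and neither did the windows of Wap, Spp1, Ltf, Wfdc12, Elf5, Gata3 and Cish. Prlr and Esr1, which were higher in both columns, each held 1 match in 1 of their several windows. Matches also stood before genes not past 2-fold in both columns, such as Glycam1. The motif occurred in 3.86% of 518 promoters of genes lower in both columns, in 8.98% of 724 promoters of genes higher in both, and in 5.99% of 12043 promoters of all genes compared. Over the whole promoter table the share was 7.02% of 32851. The sets differ in base composition, with a median transcript GC content of 56.4%, 46.0% and 50.3% in the same order, and the part of composition in these shares was not tested.

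Stat5a and Stat5b were read first, as a check of the labels. Stat5a stood at 12.5 scaled FPKM in B, 15.9 in A, beside 33.6 in wild type, and it was lower in both columns (log2 ratios -1.36 and -1.03). The labels give B no functional Stat5a allele, yet its level was close to that of A and above the 3.67 of BB, which lacks functional Stat5a as well. Stat5b stood at 12.3 in B, 10.6 in A, beside 16.7 in wild type. Both genes thus differed between B and A in the direction of the labelled alleles, but by less than 2-fold. Among the other columns, Stat5a read 13.4 in AB and 13.6 in Null. Stat5b read 14.9 in BB, 11.7 in AB and 9.04 in Null. At parturition Stat5a read 8.60 in B and 16.5 in A, and Stat5b 12.6 and 10.3. Which exons the targeted alleles still transcribe is not given in the sources used here, and which of the columns holds which allele was not tested. B and A are therefore names of the columns as labelled in all that follows. Their sample tags also carry the same 3 numbers, followed by L in B and by R in A, and no other genotype has such tags; whether same-numbered samples came from 1 animal is not given.

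By the number of genes past 2-fold, the columns labelled B and A were closer to each other than any other pair at day 6. Against wild type, 1011 genes were at least 2-fold higher in B (7.56% of those compared) and 693 lower (5.18%), and 937 were higher in A (7.01%) and 740 lower (5.54%). The genes past the limit in both columns made up 6.30% (higher) and 4.41% (lower) of those compared. Both comparisons use the same wild-type samples, so the count in common is a description and not evidence that the columns resemble each other. Of 169 genes higher in B only, 167 lay on the same side of wild type in A, and all 103 genes lower in B only lay below wild type in A. Compared directly, without wild type, 51 genes differed at least 2-fold, 33 higher in B (0.247%) and 18 higher in A (0.135%). The other 14 pairs of day 6 columns differed in 363 to 1704 genes. Against wild type the counts were 1704 for B, 1677 for A, 1576 for AB, 1165 for BB and 575 for Null. They thus did not rise steadily as the labelled number of alleles fell, although Null loses both genes in epithelium only. B and A differed from Null in 1386 and 1437 genes. Just inside the limit were Xrn1 (1.00 and 1.02) on the high side and Snrpc (-1.05 in B, at the limit in A) on the low side, and just outside on the low side was Ndufa2 (-1.07 and just above -1).

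**Figure D1:**
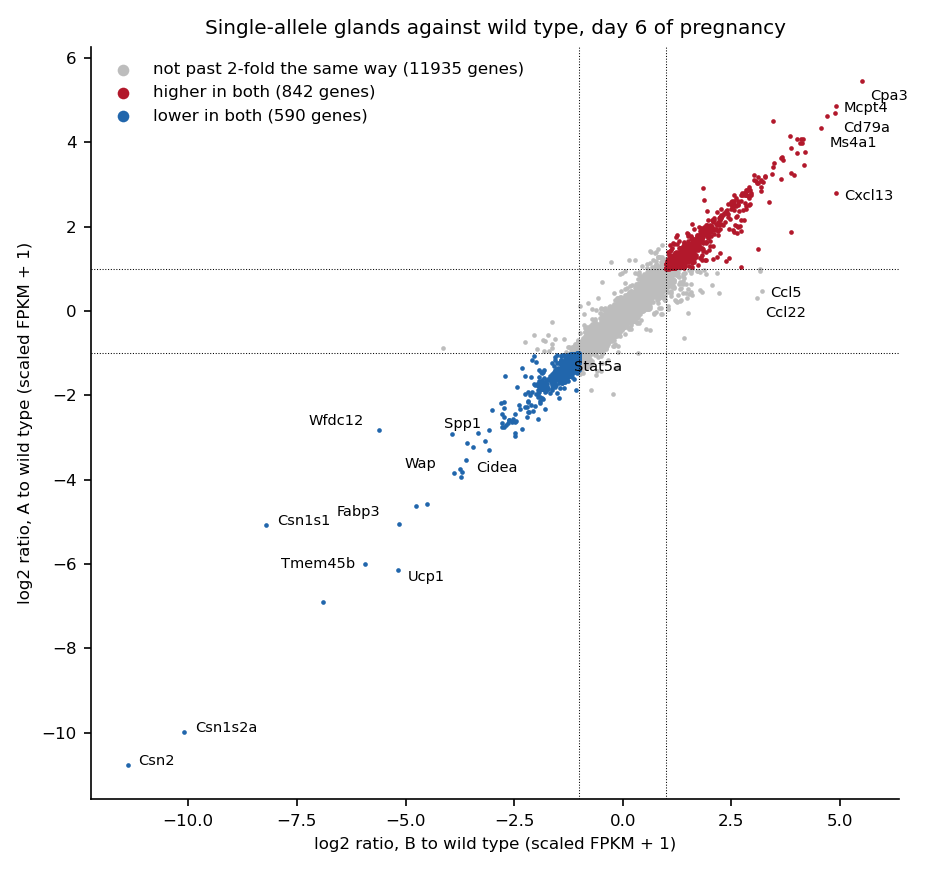
Log2 ratio of scaled FPKM + 1 to wild type in B (horizontal axis) and in A (vertical axis) for the 13367 genes compared at day 6; each point is a gene, dotted lines mark 2-fold. The 842 genes higher in both columns and the 590 lower in both lie along the diagonal, with Csn2 and Csn1s2a farthest down, Cpa3 farthest up, and no gene in the opposite corners; the axes share the wild-type column.

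The milk protein list had the lowest medians. Of 13 compared, 9 were lower in both columns and none was higher, with a median log2 ratio of -3.45 in B and -2.83 in A beside 0.04 and 0.03 over all genes. Csn2, which encodes beta-casein, stood at 0.102 scaled FPKM in B, 0.707 in A, beside 2959 in wild type (-11.39 and -10.76). Csn1s2a, an alpha-casein gene, stood at 0.102, 0.193 and 1197 in the same order. Csn1s1, the other alpha-casein gene shown above, stood at 2.92 in B, 33.3 in A, beside 1148 in wild type. The casein level of wild type stood apart from every other genotype at this stage: Csn2 read 2.83 in BB, 1.96 in AB and 4.96 in Null. Whether 1 of the 3 wild-type samples carried this level cannot be read from a mean.

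Other secreted milk proteins followed. Csn3, kappa-casein, stood at 12.9 in B, 26.9 in A, beside 211 in wild type. Wap, the whey acidic protein, was at 0.0139, 0.0509 and 14.0, and Spp1, osteopontin, at 6.33, 7.58 and 79.0. Ltf, the iron-binding lactoferrin, was at 5.11, 6.23 and 50.6, but at 308 in Null. Btn1a1, which coats the milk fat globule, was at 3.20, 4.69 and 26.9. Wfdc12, a small protease inhibitor gene of the whey type, was at 1.75, 18.1 and 133. Lalba, the lactose synthase subunit, fell below the filter because wild type alone exceeded 1 FPKM, as did Csn1s2b, Muc4 and Lao1. Its levels were 0.0698, 0.159 and 10.5.

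Some milk genes did not pass 2-fold. Glycam1, a mucin-like milk protein, read 69.8 in B, 45.6 in A, beside 81.6 in wild type, against 0.0247 in AB. Xdh, the xanthine oxidoreductase of the fat globule membrane, read 49.7, 49.9 and 52.5. Mfge8 read 262, 263 and 519, just short of the limit in both columns.

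The genes of milk lipid synthesis were mostly level. Of 22 compared, 4 were lower in both columns and 1 was higher, with medians of -0.32 and -0.29. Fabp3, a fatty acid carrier that is also abundant in brown fat, stood at 1.25 in B, 1.39 in A, beside 78.6 in wild type. Srebf1, a regulator of lipid synthesis, stood at 75.7, 71.4 and 172, and Plin2, a coat protein of lipid droplets, at 200, 223 and 488. Aldoc, a glycolytic aldolase, stood at 25.4, 35.6 and 77.3. Fasn, fatty acid synthase, read 1217, 1028 and 1533, and Scd1, a desaturase, 6453, 7756 and 4131; both enzymes are also made by adipocytes. With the trend of the ratios with length and GC content removed (described at the end), 1 of the 22 was lower in both and none higher.

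Genes around the STAT5 signal itself moved in both directions. Cish, a direct STAT5 target that inhibits cytokine receptors, stood at 13.9 in B, 14.9 in A, beside 52.7 in wild type (-1.85 and -1.76). Elf5, an ETS factor of alveolar cells, stood at 29.9, 40.8 and 113, and Gata3, a luminal factor, at 20.9, 15.8 and 58.6. These 3 of the 16 genes of the list were lower in both columns. Prlr, the prolactin receptor, was higher at 40.3 and 31.8 against 12.7 (1.59 and 1.25), and Esr1, the oestrogen receptor, at 17.2 and 16.8 against 6.60. Neither stayed past 2-fold once the length and GC trend was removed (0.84 and 0.50 for Prlr, 0.83 and 0.79 for Esr1). Socs2, another STAT5 target, read 16.7, 19.7 and 18.6, and Jak2 read 20.4, 17.9 and 9.98.

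The paracrine genes through which progesterone and prolactin act in early pregnancy were largely level. Of 12, 3 were lower in both columns and none higher (medians -0.19 and -0.19). With the trend removed 2 were lower and 1 higher, and of the 3 only Rspo1 was still past 2-fold in both (Cited1 had -1.18 and -0.60, Wnt4 -0.76 and -1.01). Rspo1, a Wnt pathway enhancer, stood at 14.8 in B, 22.8 in A, beside 105 in wild type, and Cited1, a transcriptional co-regulator, at 34.8, 51.4 and 154. Wnt4, a progesterone-induced ligand, stood at 13.2, 10.4 and 27.5. Tnfsf11, the ligand RANKL, read 41.0, 52.9 and 47.5, Areg, amphiregulin, 105, 80.4 and 101, and Pgr, the progesterone receptor, 4.25, 3.70 and 3.27.

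Genes of hormone-sensing luminal cells, which carry the oestrogen and progesterone receptors, had no common direction. Of 11, 4 were higher in both columns and 3 lower (medians 0.06 and -0.32); after removal of the trend the counts were 2 and 1. Beside Esr1 and Prlr, the higher ones were Ly6a, a surface antigen that stroma and endothelium also carry, at 334, 285 and 85.1, and Cxcl15 at 14.5, 11.7 and 3.68.

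Of 21 luminal genes, 7 were lower in both columns and none higher, with medians of -0.71 and -0.90. Spint2, a protease inhibitor of epithelial surfaces, stood at 60.5 in B, 57.7 in A, beside 284 in wild type. St14, the protease matriptase, stood at 13.0, 10.2 and 63.0, and Cldn7, a claudin, at 14.2, 12.0 and 67.4. Epcam stood at 114, 122 and 259, and Cdh1, E-cadherin, at 33.1, 30.7 and 78.6. The luminal keratins were not past 2-fold: Krt8 read 258, 228 and 312, and Krt18 309.9, 297 and 380.1. With the trend removed, 5 of the 21 were lower in both columns. Epcam (-0.97 and -0.89), Cldn3 (-0.84 and -0.80) and Spint1 (-0.99 and -1.03) were no longer among them, and Esrp1 (-1.09 and -1.02) came in.

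Of 15 basal markers, 6 were higher in both columns and none lower (medians 0.80 and 0.98), and 7 were higher after the trend was removed. Trp63 was then short of 2-fold in B (0.88, with 1.24 in A), while Krt5 (1.22 and 1.75) and Cnn1 (1.02 and 1.07) came in. Itgb4, an integrin of basal cells, lay below wild type (5.14, 4.53 and 8.36). Krt14 stood at 80.6 in B, 102 in A, beside 37.5 in wild type, Krt17 at 47.7, 60.4 and 16.4, and Trp63, the p63 factor of basal cells, at 9.96, 13.1 and 3.45. Acta2 and Myh11, contractile genes that vascular smooth muscle also expresses, stood at 456 and 481 against 226, and at 54.1 and 56.3 against 20.5. In bulk tissue, fewer cells of a type and less RNA per cell cannot be told apart.

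Of 17 tight junction and polarity genes, 7 were lower in both columns and none higher (medians -0.67 and -0.93). Cldn3 stood at 49.5, 50.0 and 168, Tjp3 at 7.91, 7.28 and 37.5, and Pard6b, a polarity protein, at 2.11, 2.11 and 9.70. Tjp1, which endothelium also expresses, read 24.2, 24.3 and 18.0. The count was 4 of 17 with the trend removed.

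Mast cell genes were among those with the highest ratios of the table. Of 18 compared, 14 were higher in both columns and none lower, with medians of 1.64 and 1.60. Cpa3, the carboxypeptidase of mast cell granules, stood at 89.1 scaled FPKM in B, 85.0 in A, beside 0.974 in wild type (5.51 and 5.45). The chymases Mcpt4 and Cma1 stood at 132 and 128 against 3.45, and at 124 and 118 against 3.78. Tpsb2, a tryptase, stood at 84.0, 79.4 and 3.79. Reads of these proteases can be shared among near-identical family members. Fcer1a, part of the IgE receptor, stood at 5.43, 5.31 and 0.0804, and Il1rl1, the receptor of interleukin 33, at 3.50, 3.50 and 0.376. Kit, which luminal progenitors also express, read 38.7, 46.4 and 57.3, and the mucosal protease Mcpt1 was below 0.02 in all 3 columns. The high level was not particular to these columns: Cpa3 read 61.5 in BB and 44.5 in AB, but 3.98 in Null. After removal of the trend 10 of 18 were higher and 1, Tph1, was lower.

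B lymphocyte genes were high in B and A. Of 21 compared, 17 were higher in both columns and none lower, with medians of 2.69 and 2.01, and 19 were higher after the trend was removed. Cd79a and Cd79b, the signalling chains of the B cell receptor, stood at 61.0 and 48.6 in B, 53.5 and 45.3 in A, and 1.10 and 1.92 in wild type. Ms4a1, the surface protein CD20, stood at 25.9, 21.9 and 0.137, and Fcer2a, the low-affinity IgE receptor of mature B cells, at 18.1, 14.9 and 0.188. In BB, AB and Null, Cd79a read 1.64, 1.30 and 5.95. Both columns lay above each of the other 4 for 16 of the 21 genes, and the other 5 were Cd74, Igj, Prdm1, Irf4 and Ebf1; Ebf1, for instance, read 22.5 in B and 34.3 in AB. Of the 842 genes higher in both columns, 515 lay above each of the other 4 columns, so this place was not particular to B cell genes. For 114 genes the gap was at least 2-fold, and among those with the widest gap were Fcer2a, Cd79a, Cd79b and Ms4a1. Siglecg, Cd22, H2-Ob, Btla, Pou2af1 and Fcrl1, known from B cells, came next. Ptprc, the pan-leukocyte antigen CD45, stood at 33.8 in B, 27.7 in A, beside 5.29 in wild type.

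Signs of lymph node tissue were mixed, although the protocol says that nodes were taken out. Cr2, Cxcr5 and Ltb, genes of B cell follicles, stood at 9.65, 8.12 and 25.8 in B and at 5.21, 4.83 and 16.6 in A, against 0.0404, 0.457 and 2.91 in wild type. Cxcl13, the follicular chemokine, stood at 39.3 in B, 8.33 in A, beside 0.351 in wild type, and Ccr7 at 12.0, 3.16 and 0.507. Ccl19 and Ccl21a, chemokines of the node's T cell zone, were listed at 0 in every column, which says nothing of their level where the estimate may have failed. Madcam1, a vessel addressin, read 2.70, 1.75 and 1.63. Glycam1, the milk protein gene that was also listed with this group, read 69.8, 45.6 and 81.6. It was thus higher in B and A than in BB, AB and Null, but not higher than in wild type. This group of genes was chosen after its values had been seen. The part of node tissue in the B cell genes and in Glycam1 was not tested. Igj, the joining chain of secreted antibodies, stood at 55.6 in B, 13.1 in A, beside 2.84 in wild type.

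T cell genes were less even between the columns. Of 16 T and NK cell genes compared, 3 (Cd2, Ncr1 and Gzma) were higher in both columns and none was lower, with medians of 1.19 in B and 0.52 in A. Cd3e, part of the T cell receptor complex, read 2.82 in B, 0.640 in A, beside 3.09 in wild type, and Lck, a kinase of T cells, 5.87, 2.40 and 1.52. Cd8a did not pass the filter, at 2.39, 0.641 and 0.194.

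Genes of macrophages did not move as a single set. Of 19 macrophage and monocyte genes, 9 were higher in both columns and none lower (medians 1.10 and 0.78). Cd163, a scavenger receptor, stood at 30.1 in B, 30.4 in A, beside 3.67 in wild type, and Mrc1, the mannose receptor, at 58.0, 58.0 and 10.4. Timd4, a receptor for dying cells, stood at 20.6, 12.0 and 0.397, and Retnla, a secreted protein of alternatively activated macrophages and adipose tissue, at 907, 885 and 82.3. Pan-macrophage genes differed among themselves. Csf1r stood at 86.9, 82.6 and 34.2 and C1qa at 236, 227 and 109.7, and C1qb and C1qc were also higher in both columns. Emr1 (the antigen F4/80) and Cd68 were level, at 30.4, 29.1 and 27.5 and at 70.2, 67.8 and 99.7.

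Some macrophage genes tied to lipid uptake and lysosomes were lower: 7 of 19 in both columns, with 1 higher and medians of -0.40 and -0.53. This list was chosen after its values had been seen, as were Lyve1, Fcna and F13a1. Trem2, a lipid-sensing receptor, stood at 8.96 in B, 8.43 in A, beside 57.8 in wild type. Gpnmb stood at 9.95, 9.87 and 71.5, Mmp12, macrophage elastase, at 4.06, 4.98 and 32.8, and Lgals3, galectin-3, at 39.4, 38.5 and 257. Atp6v0d2, a subunit of the vacuolar proton pump, stood at 1.54, 1.60 and 14.6, and Itgax, the antigen CD11c, at 4.42, 4.38 and 15.7. Ctsk, a lysosomal protease, was the higher one at 89.0, 90.1 and 42.9, and Cd9, a tetraspanin, read 203, 191 and 241. Null had 48.7 for Trem2 and 186 for Lgals3, and AB had 4.61 and 63.9. At parturition the order was the opposite for Lgals3, at 51.5, 43.2 and 10.8. Lyve1, which lymphatic vessels share with tissue macrophages, stood at 24.7, 22.9 and 0.998, while the lymphatic factor Prox1 was below the filter at 0.635, 0.457 and 0.261. Fcna, a ficolin of macrophages, stood at 47.7, 47.3 and 2.31, and F13a1, a coagulation factor subunit, at 75.3, 75.4 and 9.96.

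Of 15 genes of MHC class II and dendritic cells, 5 were higher in both columns and Itgax was lower. The 5 were Ciita, the class II transactivator, H2-Oa, H2-Ob, Ccr7 and Cd209a. Ciita stood at 7.78, 6.21 and 1.32. The abundant class II genes were not past 2-fold: Cd74 read 649 in B, 593 in A, beside 379 in wild type, and H2-Aa 428, 428 and 234. After removal of the trend 9 of 15 were higher. Reads of the H2 genes can be shared among family members.

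Of 22 chemokine genes, 6 were higher in both columns and none lower. Ccl11, an eosinophil attractant, stood at 82.6 in B, 79.9 in A, beside 12.4 in wild type, Ccl8 at 128, 117 and 19.6, and Ccl24 at 18.1, 14.9 and 1.70. Granulocyte genes gave no common picture: of 9 compared, Retnlg and S100a9 were higher and Ltf lower, and the eosinophil peroxidase gene Epx was below 0.01 in all 3 columns. Interferon response genes were near level, with 1 of 22 higher in both (Oas2, at 6.37, 5.84 and 1.37) and medians of 0.36 and 0.33.

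**Figure D2:**
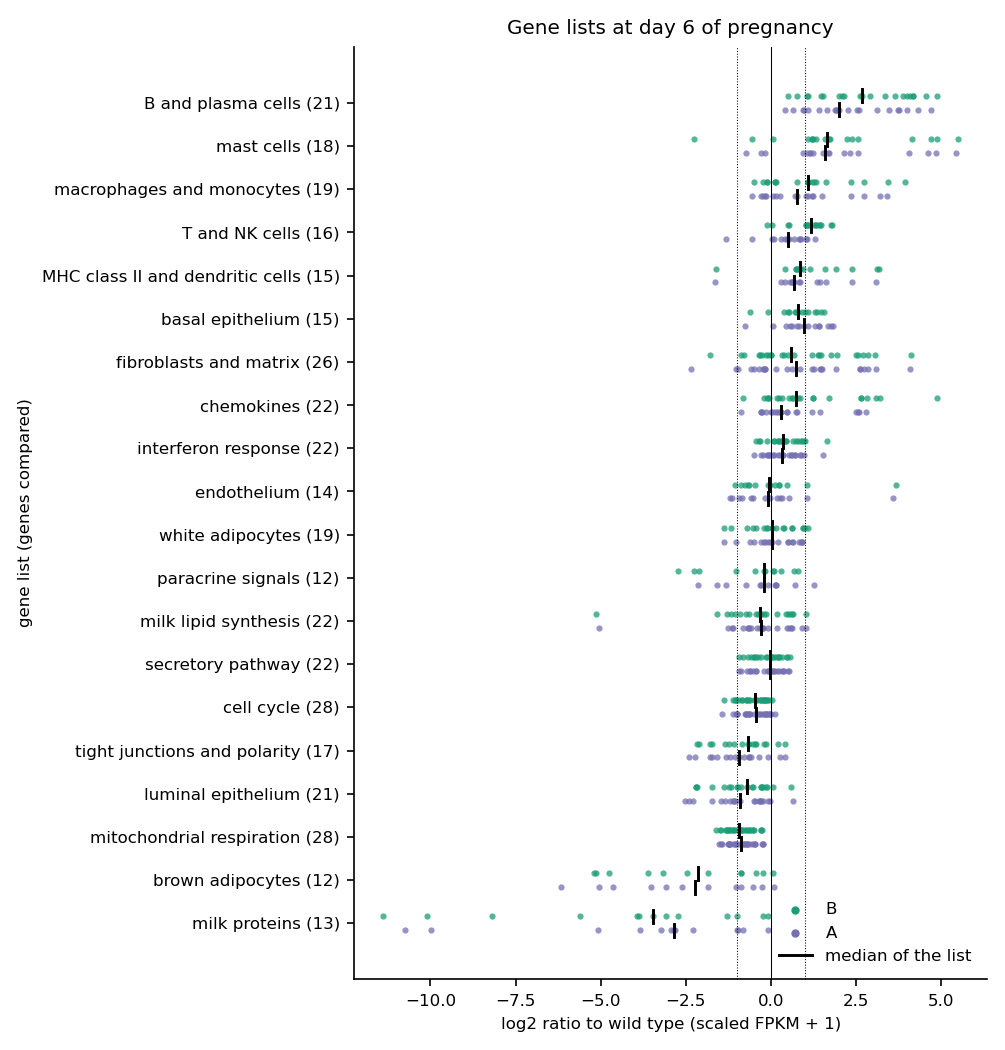
Log2 ratio to wild type at day 6 for the members of 20 gene lists (vertical axis, with the number of genes compared), in B (green) and in A (violet); black bars are list medians and dotted lines mark 2-fold. Medians are highest for the B cell list, 2.69 and 2.01, and lowest for the milk protein list, -3.45 and -2.83.

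Many fibroblast genes were high, and the fibrillar collagens were not of one kind. Of 26 fibroblast and matrix genes, 12 were higher in both columns and 1 lower, and the counts were the same after removal of the trend. Pi16, a marker of adventitial fibroblast progenitors, stood at 127 in B, 125 in A, beside 6.43 in wild type. Dcn, decorin, stood at 1137, 1157 and 136, Pdgfra, a growth factor receptor of fibroblasts, at 50.0, 51.3 and 6.80, and Col14a1 at 72.6, 72.9 and 9.13. Postn, periostin, stood at 1518, 1619.8 and 265. Sfrp4, a secreted Wnt antagonist, stood at 51.0, 46.5 and 2.00. Among fibrillar collagens, Col3a1 was higher, at 1896, 1709 and 704, and Col5a2 at 128, 127 and 54.4, the latter short of 2-fold with the trend removed (0.96 and 0.98). Col1a1, the main collagen chain of bone and skin, read 329, 298 and 607, while BB read 1579 and AB 1416. Col1a2 read 475, 407 and 521. Tnc, tenascin C, was the gene lower in both, at 5.69, 3.57 and 22.0. Pi16 and Dcn were also high in BB (178 and 1106) and AB (151 and 981), and lower in Null (17.1 and 436).

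Brown fat genes were low. Of 12 compared, 7 were lower in both columns and none higher, with medians of -2.15 and -2.23. Ucp1, the uncoupling protein of heat production, stood at 7.57 in B, 3.36 in A, beside 309 in wild type. Cidea, a lipid droplet protein that alveolar cells also make, stood at 26.9, 28.7 and 343. Cox7a1 and Cox8b, subunits of cytochrome oxidase typical of brown fat and muscle, stood at 7.12 and 77.1 in B, 7.90 and 83.2 in A, and 219 and 704 in wild type. Ucp1 was also low in BB (2.02), AB (7.98) and Null (20.6), so for this gene wild type was the column that stood apart. This did not hold for the whole list. Null lay above B and A for each of the 7 lower genes, with Cidea at 217, Cox8b at 318 and Cox7a1 at 55.3. For Slc27a2 it read 3.58, beside 3.53 in wild type. Prdm16 and Ppargc1a, regulators of brown fat, read 1.00 and 1.26 in B, 0.809 and 1.29 in A, and 2.69 and 1.14 in wild type.

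White fat genes were level. Of 19 compared, 2 (Slc2a4 and Gpd1) were lower in both columns and none higher, with medians of 0.04 and 0.04. Adipoq, adiponectin, read 1149 in B, 1231 in A, beside 870.1 in wild type, and Fabp4, the adipocyte fatty acid carrier, 7584, 8435 and 10258. Slc2a4, the insulin-responsive glucose transporter, stood at 51.0, 56.7 and 116. With the trend removed, 4 white fat genes were higher and none lower. Mitochondrial genes were lower as a set of small steps: 13 of 28 were lower in both columns and none higher, with medians of -0.93 and -0.87. Cox5a, a cytochrome oxidase subunit, stood at 146, 155 and 445, and Acadvl, an enzyme of fatty acid oxidation, at 111, 112 and 266. The count was 7 of 28 with the trend removed. The part of brown fat in these levels was not tested.

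Skeletal muscle RNA was low in the 3 columns compared, and its source was not tested. The summed level of 16 muscle genes was 62.0 scaled FPKM in B, 110.4 in A, beside 181 in wild type, and 8421 in AB. None of 15 muscle genes was past 2-fold the same way in both columns. Of 12 keratinocyte genes listed, 10 were below the filter, and Krt1 and Krt2 were below 0.06 in the 3 columns. Of 10 nerve and Schwann cell genes, 3 were lower in both columns. Among them was Sox10, a factor of Schwann cells and of mammary epithelium, at 17.1, 16.5 and 59.4. Of 14 endothelial genes, 2 (Tek and Lyve1) were higher and 1 (Tie1) was lower, and Pecam1 read 53.2, 53.7 and 44.7. Only Lyve1 was past 2-fold after removal of the trend (0.80 and 0.81 for Tek, -0.71 and -0.80 for Tie1).

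Cell cycle genes were slightly low, with 4 of 28 lower in both columns, none higher, and medians of -0.47 and -0.43. Plk1, a mitotic kinase, stood at 2.28, 2.14 and 7.39, and Birc5, survivin, at 2.61, 2.76 and 6.55. Mki67, the proliferation antigen, read 7.74, 7.74 and 8.46. After removal of the trend 2 of 28 were lower, and Plk1 had -0.98 and -1.02. None of 22 genes of the secretory pathway was past 2-fold in both columns. Of 16 STAT3 and involution genes, Il6st and Mmp3 were higher and Bcl3 and Fcgbp lower, and Stat3 itself read 44.6, 40.0 and 45.7. Mmp3 and Fcgbp were still past 2-fold once the trend was removed, and Il6st (0.77 and 0.70) and Bcl3 (-0.70 and -1.23) were not.

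**Figure D3:**
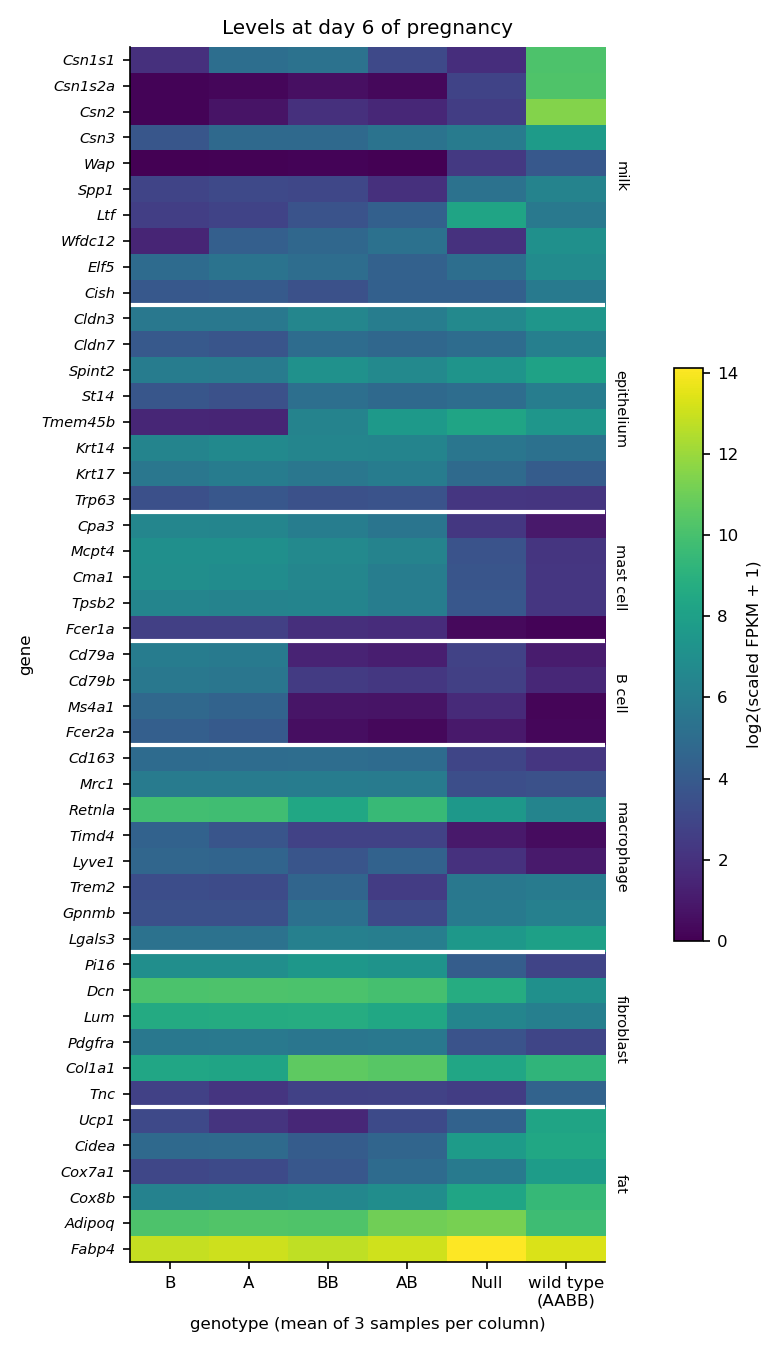
Level at day 6, as log2 of scaled FPKM + 1 (colour), of genes named in the text (vertical axis, grouped) in the 6 genotypes (horizontal axis), each column a mean of 3 samples. B and A alone are high for the B cell genes shown and low for Tmem45b, wild type alone is high for Csn2 and Ucp1, and mast cell genes and Pi16 are high in B, A, BB and AB.

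Few genes were low in these columns alone by a wide gap. Of the 590 genes lower in both, 407 lay below each of the other 4 columns, but only 26 were at least 2-fold below each. Tmem45b, a membrane protein gene, had the widest gap: it stood at 1.81 (B) and 1.73 (A) against 79.6 in BB, 195 in AB, 299.7 in Null and 172 in wild type. Mmp15, a membrane-bound metalloproteinase, stood at 10.5 and 6.50 against 34.5 to 43.9 in the other 4, and Jup, the desmosome protein plakoglobin, at 15.6 and 12.7 against 49.9 to 53.7. Notch3, a receptor of smooth muscle and some luminal cells, stood at 8.38 and 6.40 against 21.5 to 24.0. Cdkn1a, the cell cycle inhibitor p21, stood at 7.69 and 5.52 against 19.7 to 24.0. Mmp15, Jup, Notch3 and Cdkn1a were chosen for this gap after their values were seen.

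Other genes among the 15 lowest were Gdpd3, a lysophospholipase, at 1.76, 1.65 and 61.7, and Gjb2, the gap junction protein connexin 26, at 4.55, 6.54 and 65.2. St6galnac1, a sialyltransferase, stood at 0.0195, 0.0139 and 12.7, Acot11, an acyl-CoA thioesterase of brown fat, at 0.860, 0.599 and 23.4, and Cited4 at 6.87, 6.37 and 102. Among the 15 highest, Retnlg stood at 14.8, 18.6 and 0.104. Ly6c2, a monocyte antigen with near-identical relatives, stood at 18.0, 17.9 and 0.528, with 18.7 in BB.

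Few genes differed between B and A. B was higher for Ccl22 (11.5 against 0.806) and Ccl5 (68.9 against 9.62), chemokines of dendritic and T cells, for Cxcl13 and Igj named above, and for Saa3, an acute phase gene (22.6 against 4.28). Wild type had 0.467 of Ccl22 and 6.59 of Ccl5. A was higher for Csn1s1, Wfdc12 and Csn3, and for Tph1, the enzyme of serotonin synthesis (12.1 against 3.53, with 20.7 in wild type). Among the genes with the largest differences, 5 muscle genes were also higher in A, Tnnt3 for instance at 9.61 against 3.77. Spink3, a protease inhibitor gene (23.4 against 4.31), Ly6d (48.0 against 10.8) and Fgg, a fibrinogen chain (19.6 against 5.42), were also higher in B, and Hepacam2 (9.90 against 2.89) in A. At parturition the B to A log2 ratio was 0.17 for Ccl22, -0.30 for Ccl5, -0.53 for Cxcl13 and -0.01 for Spink3, where day 6 had 2.79, 2.72, 2.11 and 2.20. It was 1.45 for Igj and -1.23 for Csn1s1, on the side of day 6 (2.00 and -3.13), and 1.02 for Tph1 and 0.44 for Wfdc12, on the other side (-1.53 and -2.79 at day 6).

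The same genes were then looked at in other samples, those of parturition (within 12 hours of delivery; 3 samples of B and 2 each of A and wild type), which were scaled in their own table. Of the 842 genes higher in both columns at day 6, 741 could be compared, and 339 (45.7%) were again higher in both, beside 15.9% of all 12757 genes compared at both stages. Another 36 (4.86%) were lower. Of the 590 genes lower at day 6, 574 could be compared and 109 (19.0%) were again lower in both, beside 8.45% of all genes, while 76 (13.2%) were higher. The 339 genes are 16.7% of the genes higher at parturition, and the 109 are 10.1% of those lower. The median ratios at parturition were 1.05 and 0.97 for the genes higher at day 6, -0.14 and -0.06 for those lower, and 0.11 and 0.10 for all genes.

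Milk protein genes stayed low: 12 of 13 were lower in both columns at parturition. Csn2 stood at 2698 in B, 7706 in A, beside 243805 in wild type. Of 22 milk lipid genes, 15 were lower. Mast cell genes were higher in 8 of 16 compared, with Cpa3 at 28.7, 16.3 and 1.63. Macrophage genes were higher in 17 of 19 and fibroblast genes in 22 of 26, among them Col1a1 at 264, 204 and 39.0. B cell genes were near or below the filter at parturition. Cd79a read 0.818, 0.344 and 0.901; of 21 genes only 7 passed the filter, and the 4 that were higher (Cd37, Cd74, Irf4 and Ebf1) are not restricted to B cells. Luminal markers were higher in 8 of 21 and lower in 3, with Krt8 at 483, 449 and 218. Of 19 white fat genes 17 were higher, and of 15 muscle genes 14. Of 22 secretory pathway genes, 8 were lower. Ucp1 stood at 4.72, 0.568 and 11.8, and Tmem45b at 2.61, 2.80 and 4.16. Tissue make-up of the wild-type gland differs between stages, and its part in these counts was not tested.

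**Figure D4:**
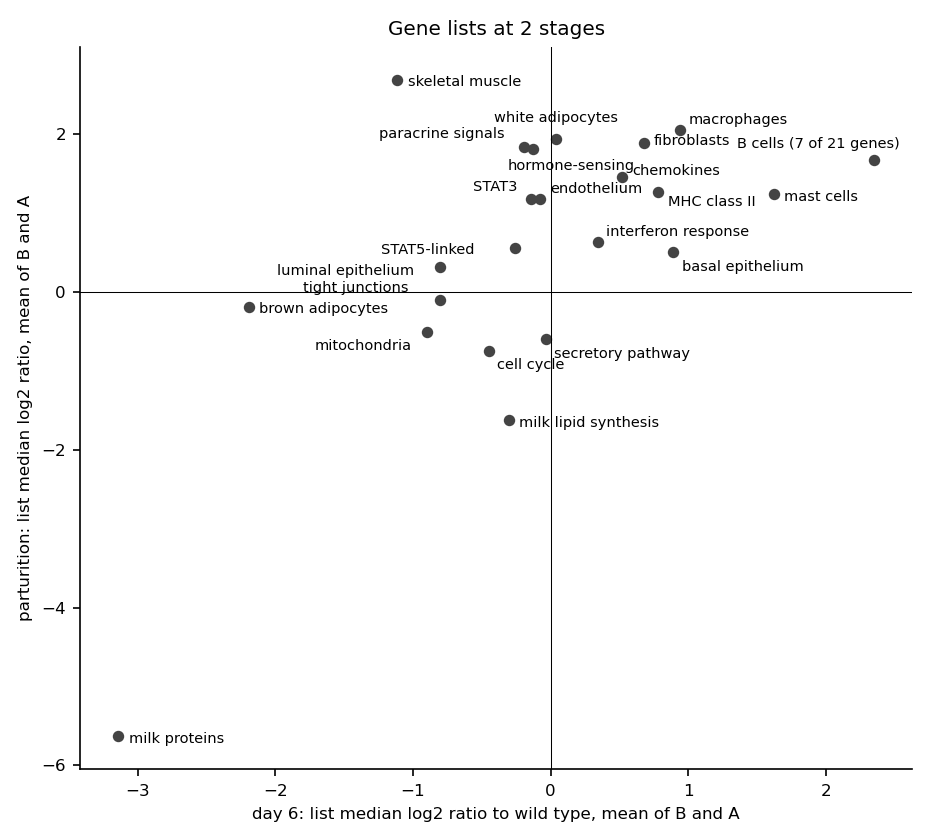
Median log2 ratio to wild type of 23 gene lists at day 6 (horizontal axis) and at parturition (vertical axis), each the mean of the B and A medians. Milk proteins lie lowest at both stages, macrophage, mast cell and fibroblast lists are above 0 at both, and the muscle list is above 0 at parturition and below 0 at day 6.

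The ratios followed base composition and transcript length, and this bears on every count above. In the quintile of genes with the lowest GC content of the transcript the median log2 ratio was 0.45 in B and 0.47 in A, and in the quintile with the highest it was -0.41 and -0.49. The same medians ran from 0.20 to -0.23 in BB, from 0.22 to -0.26 in AB and from 0.07 to -0.06 in Null. Genes higher in both columns made up 13.0% of the lowest quintile and 1.92% of the highest, and genes lower in both 0.792% and 12.0%. By length, the medians ran from -0.32 (B) and -0.30 (A) in the shortest quintile to 0.41 and 0.39 in the longest. Genes higher in both had a median GC content of 46.0%, those lower 56.4% and all genes 50.3%. With the trend removed, 701 genes were higher and 285 lower, which moves the share of higher genes among those past 2-fold from 58.8% to 71.1%; 485 of the 842 and 215 of the 590 genes were among them. Among the highest and lowest genes, some ratios moved little and others more. Cpa3 had 5.30 and 5.14, Cd79a 5.32 and 5.11, Csn2 -11.55 and -11.01, Ucp1 -5.21 and -6.24, and Dcn 2.82 and 2.78. Cited4 went from -3.71 and -3.81 to -2.63 and -2.69, Cox7a1 from -4.76 and -4.63 to -3.92 and -3.84, Wap from -3.88 and -3.83 to -3.19 and -3.22, and Fabp3 from -5.15 and -5.06 to -4.53 and -4.51. The part of library preparation, of RNA quality and of cell make-up in the trend was not tested.

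**Figure D5:**
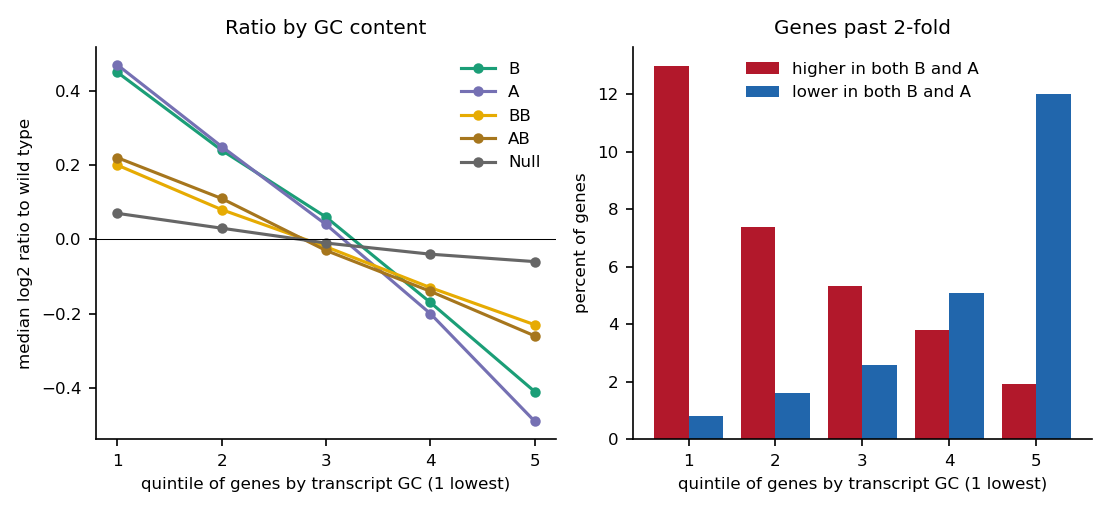
Left, median log2 ratio to wild type (vertical axis) in each quintile of genes by transcript GC content (horizontal axis) for the 5 genotypes; right, percent of genes in each quintile that were at least 2-fold higher or lower in both B and A. The slope is steepest in B and A, from 0.45 and 0.47 to -0.41 and -0.49, and the higher genes fall from 13.0% to 1.92% of a quintile while the lower ones go from 0.792% to 12.0%.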

How the data were processed

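Poly(A) RNA of mammary tissue was measured in 3 listed samples each of B, A and wild type at day 6 of pregnancy. CASAVA, TopHat and the mm9 build are named, per the submitters' processing notes; versions, the program behind the FPKM, its annotation and filters are not given in the sources used here. The deposited FPKM are the authors' mean per genotype, with no per-sample column: 66.6% to 67.6% of day 6 values over 1 FPKM have the repeating decimals of a mean of 3. Read depth is unknown; FPKM sums ranged from 433958 to 528347 at day 6.

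The 6 columns of a stage were scaled by their median ratio to the geometric mean (over the 11733 day 6 genes that reached 1 FPKM throughout; factors 0.916 to 1.07). Genes with at least 1 FPKM in 2 of 6 columns were compared, by the log2 ratio of scaled FPKM + 1, and counted past 2-fold. A gene high in wild type alone does not pass this filter. The test planned for values per sample could not be run on means. GENCODE M21, matched by symbol (98.2%), gave transcript length and GC content, and the trend was removed by lowess with a fraction of 0.3. Promoters came from RefSeq's table (GRCm38.p6).

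The members and the 27 gene lists were chosen with earlier results of these data known, and 4 further lists after the values had been seen. The latter are used for single genes, except that counts and medians are also given for the macrophage list tied to lipid uptake. Named genes are Stat5a and Stat5b, up to 8 members past 2-fold and 4 further members per list, the 15 highest and 15 lowest by the smaller of the B and A ratios with at least 5 FPKM, and further genes (Xdh, Mfge8, Muc4, Lao1, Tjp1, Tph1, Igj, Ptprc, Lck, Cd8a, Cd74, Fabp4, Prox1, Epx, and those said to be so in the text) chosen after their values were seen. Some genes that fall under this rule are not reported here. The comparison of B with A and the counts over pairs of columns were added after seeing the data. The calculation was tested on simulated data. The software was matplotlib 3.10.9, statsmodels 0.14.6, scipy 1.17.1, pandas 2.3.3 and numpy 2.4.6 under Python 3.11.15.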

Additional observations from a re-analysis of the deposited data

How the results depend on the processing

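In all, 6 alternatives were run: a pseudocount of 0.1, no filter, no scaling, scaling over B, A and wild type only, a stricter filter at 5 FPKM, and the length and GC trend taken out. With a pseudocount of 0.1, 1385 genes were higher in both columns, 1587 in B and 1514 in A, since low genes are damped less. With the trend removed, 285 genes were lower in both, 353 in B and 358 in A; the cause of the trend was not tested. Without scaling, 12.2% of the genes lower at day 6 were lower at parturition, where the scaled value is 19.0%. The other counts over all genes stayed within 1.5 times. Of the called ratios of named genes and of the list medians past 2-fold, none changed sign under any of the 6, but sizes moved by over 1.5 times: 54 of 512 named-gene ratios and 18 of 54 list counts with the trend removed, and 78 ratios, 7 list medians and 5 list counts with the pseudocount of 0.1. At the filter of 5 FPKM 6 list medians and 3 list counts also moved this far. So did 2 list medians without a filter and 2 list counts without scaling. Without a filter 621 genes were lower in both, the added ones being high in wild type alone.

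No paired analysis was possible because the tables hold 1 mean per genotype, although B and A share sample numbers. Leaving out each replicate was not run for the same reason, so a single sample can carry any value given here, and depth and counting error are unknown.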

Other observations

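A set of transcripts outside the lists stood above all other genotypes in B and A at day 6, and was chosen after its values were seen. Ogt, the enzyme that adds N-acetylglucosamine to proteins, read 54.9 scaled FPKM (B) and 55.6 (A) against 14.9 to 22.6 in the other 4 columns. Ttc14 read 8.47 and 8.96 against 1.63 to 2.90, and the long noncoding RNA Meg3 read 4.59 and 4.76 against 0.466 to 1.28. At parturition the order was the opposite, with Ogt at 18.8, 19.1 and 52.4 in B, A and wild type. With the length and GC trend removed, the log2 ratio in B was 0.90 for Ogt, 0.61 for Ttc14 and 0.94 for Meg3, each short of 2-fold.

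Hp, haptoglobin, which fat cells and liver make, read 116 (B) and 135 (A) against 369.7 to 596 in the other 4 columns. At parturition it read 183 and 175 against 24.0 in wild type. Ephb4, a receptor of venous endothelium and mammary epithelium, read 10.6 and 9.61 against 24.8 to 28.8 at day 6.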
